A study of Mus musculus with 4 samples.

Results

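Nes, Vim, Lmna, Lmnb1 and Lmnb2 encode nestin, vimentin, lamins A and C, lamin B1 and lamin B2, and were followed as 5 of the 32285 genes measured by single-cell RNA sequencing of mouse embryonic stem cells (mESC). The members were picked by symbol, and Nes had already been seen to be higher in cells of these libraries without a detected Nanog transcript. That difference is therefore described here and not tested. The labels give 2 WT samples of E14tg2a.4, a male mESC line, and 2 samples of its derivative CG0630 from the SIGTR gene-trap resource, in which 1 Srrm2 allele is trapped (Srrm2 hKO). All cultures received serum-free medium with LIF, the cytokine that holds mESC in self-renewal. The culture times disagree between sources: the labels name 24 h or 72 h, whereas the study's methods give 1 time, between these, for all single-cell cultures. The gene-trap line is a single clone, and the study's replicates are batches of a line thawed independently, stocked at lower passage numbers for Srrm2 hKO than for WT.

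The deposited matrix joins 4 libraries, in which barcodes end in the number of their library and sample names are absent. No source used here ties a number to a genotype, so WT and Srrm2 hKO were not compared and each library is described by its number as a single culture. The cell filter, rebuilt from the study's methods, left 31989 cells, which is not exactly the number the study states. There were between 7464 and 8514 cells per library, with medians of 18378 to 21898 UMIs (unique molecular identifiers, counts of captured transcripts). Among them 105 barcode sequences occurred in more than 1 library. Levels are UMIs of a gene per 1000000 UMIs of the same cells (CPM), and intervals are exact 95% intervals that cover counting error only. The 6 pluripotency genes Pou5f1, Sox2, Nanog, Utf1, Sall4 and Tdgf1 were detected in every library, with a sum of 2308 to 2751 CPM. The trapped gene Srrm2 measured 387, 533, 238 and 356 CPM over libraries 1 to 4, and no library was given a genotype from these values.

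All 5 proteins are intermediate filament proteins. Nestin and vimentin assemble in the cytoplasm: nestin is known from neural stem and progenitor cells and cannot form filaments alone, and vimentin is its common partner and the typical filament of mesenchymal cells. Keratins 8 and 18 form the filaments of simple epithelia, the first epithelia of the embryo. Lamins line the inner nuclear membrane. B-type lamins are present in nearly all cells, whereas lamins A and C, both made from Lmna, are low in pluripotent cells and rise with differentiation. The UMIs are counted per gene here and so do not separate lamin A from lamin C.

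Nes (ENSMUSG00000004891) spans positions 87971078 to 87980451 of chromosome 3 on the plus strand (GRCm38). Vim (ENSMUSG00000026728) spans 13573927 to 13582826 of chromosome 2 on the plus strand, Lmna (ENSMUSG00000028063) spans 88480147 to 88509956 of chromosome 3 on the minus strand, and Lmnb2 (ENSMUSG00000062075) spans 80901203 to 80918245 of chromosome 10 on the minus strand. The stretch upstream of a start site is shown for Nes and Lmna, which were both higher in cells rich in keratin transcripts, and for Lmnb2, which was not. The sequences are from RefSeq (GRCm38.p6), on the strand of the gene, from 250 bases before the start site the table lists up to that site or to the first annotated exon. The site listed for Lmna is internal, so its stretch lies inside the annotated span of the gene, downstream of the outermost annotated start and outside its exons. Capitals mark matches to the GC box (GGGCGG on either strand), the letters bound by Sp family factors.
Nes, chr3:87970843-87971077: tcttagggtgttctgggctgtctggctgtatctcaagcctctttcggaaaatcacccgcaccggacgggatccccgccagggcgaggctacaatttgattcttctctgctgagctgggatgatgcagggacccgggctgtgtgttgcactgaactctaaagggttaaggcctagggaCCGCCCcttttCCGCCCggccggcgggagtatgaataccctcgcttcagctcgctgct
Lmna, chr3:88503387-88503602: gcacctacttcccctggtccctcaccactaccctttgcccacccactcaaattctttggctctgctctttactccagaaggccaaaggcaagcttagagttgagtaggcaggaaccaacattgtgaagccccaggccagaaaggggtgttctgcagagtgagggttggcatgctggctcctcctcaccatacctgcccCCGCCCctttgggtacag
Lmnb2, chr10:80918246-80918495: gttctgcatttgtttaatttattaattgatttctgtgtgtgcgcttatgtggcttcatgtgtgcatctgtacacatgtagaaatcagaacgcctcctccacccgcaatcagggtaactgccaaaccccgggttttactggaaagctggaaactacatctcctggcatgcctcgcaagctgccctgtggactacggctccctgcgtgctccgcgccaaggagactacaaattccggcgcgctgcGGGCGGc

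The Nes stretch of 235 bases held 2 GC boxes, and the Lmna stretch of 216 bases and the Lmnb2 stretch of 250 bases each held 1. Of 32851 RefSeq stretches of 250 bases, 32.7% held at least 1 such match, so the match is common. None of the 3 stretches held the CCAAT box (CCAAT, in 33.8% of all stretches), the TATA box (TATAAA, 12.4%), the AP-1 letters (TGANTCA, 6.75%) or the octamer of POU factors (ATGCAAAT, 1.60%), each searched on both strands. These letter matches are descriptions of the windows and were not linked to the levels below.

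The 5 genes differed widely in how much they varied between cultures. Nes was lowest in library 1 and highest in library 4. Its levels over libraries 1 to 4 were 9.66 (9.19 to 10.1), 23.6 (23.0 to 24.3), 40.3 (39.3 to 41.2) and 69.4 CPM (68.2 to 70.6). Libraries 4 and 1 thus differed 7.19-fold (6.82 to 7.57), and each step between neighbours in this order was between 1.70-fold and 2.45-fold. A Nes UMI was found in 3.03%, 8.61%, 10.5% and 21.7% of cells of libraries 1 to 4 after each cell was thinned to 5000 UMIs, and in 8.14%, 25.1%, 23.9% and 46.9% of cells without thinning. The unthinned shares put library 2 slightly above library 3, while thinned shares and levels put it below.

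Vim ran in a different order. Its levels over libraries 1 to 4 were 171, 151, 286 and 96.7 CPM, so that library 3 lay 2.96-fold (2.91 to 3.01) above library 4. The order depended on cells rich in keratin transcripts, defined below: without them Vim was at 165, 149, 132 and 79.5 CPM, and library 1 was highest. Its counts were spread unevenly over the cells of library 3. There the 10% of cells with the most Vim UMIs held 73.2% of them, compared with 41.6%, 41.8% and 59.5% in libraries 1, 2 and 4. The variance of Vim UMIs per thinned cell was 13.9 times their mean in library 3 and 1.84 to 4.20 times in the other libraries.

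The 3 lamin genes varied less. Lmna measured 33.7, 24.97, 37.1 and 28.6 CPM over libraries 1 to 4 and spanned 1.49-fold (1.43 to 1.54), but without cells rich in keratin transcripts it was at 32.4, 24.3, 24.5 and 22.7 CPM, and library 3 was no longer highest. Lmnb1 measured 232, 341, 252 and 333 CPM and spanned 1.47-fold (1.45 to 1.48). Lmnb2 measured 26.6, 34.5, 24.6 and 30.7 CPM and spanned 1.41-fold (1.35 to 1.46). Both B-type genes were higher in libraries 2 and 4 than in libraries 1 and 3, and libraries 2 and 4 differed by only 1.02-fold (1.01 to 1.03) for Lmnb1. Lmnb2 UMIs were distributed over thinned cells with a variance of 0.992 to 1.03 times their mean, close to that of counting alone. Of 11099 genes with at least 200 counts in every library, 41% spanned at least 1.5-fold, and Nes and Vim were among them while the 3 lamin genes were not. A smaller span than that of Nes was found for 99.5% of these genes, than that of Vim for 94.6%, and than those of Lmna, Lmnb1 and Lmnb2 for 57.6%, 55.6% and 48.8%. Cultures, genotypes and library preparations cannot be told apart behind any of these spans.

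Cells were next placed in 3 ranges, to ask where in each culture the genes were expressed. Keratin-high cells held at least 5 UMIs of Krt8 and Krt18 together. Each remaining cell, thinned to 5000 UMIs, was called formative-high where its UMIs of 8 formative genes (Otx2, Fgf5, Pou3f1, Dnmt3a, Dnmt3b, Sall2, Lef1, Sox3) exceeded those of 9 naive genes (Klf2, Klf4, Klf5, Esrrb, Tfcp2l1, Nr5a2, Tbx3, Prdm14, Zfp42), and naive-high otherwise. Naive pluripotency is the state of the early epiblast, and formative pluripotency the step that follows it before lineages are chosen. The ranges are cuts through a continuum and not cell types. Naive-high cells made up 95.9%, 78.2%, 79.4% and 45.2% of libraries 1 to 4, formative-high cells 2.69%, 20.5%, 9.77% and 45.3%, and keratin-high cells 1.43%, 1.30%, 10.8% and 9.49%. Within 2 UMIs of the split lay 320, 929, 696 and 821 naive-high cells and 88, 334, 337 and 536 formative-high cells of libraries 1 to 4, and 24, 56, 80 and 255 keratin-high cells held only 5 or 6 keratin UMIs. Keratin-high cells were deeper, with medians of 26480.5 to 30269 UMIs against 18317 to 21837 UMIs in the rest of their libraries. The median mitochondrial share of UMIs was 5.45%, 4.18%, 4.71% and 3.76% in naive-high cells of libraries 1 to 4, 4.08%, 3.89%, 3.77% and 3.43% in formative-high cells and 3.69%, 3.59%, 3.41% and 3.002% in keratin-high cells, and its part in the differences below was not tested.

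Nes rose from naive-high through formative-high to keratin-high cells in every library. In naive-high cells its levels over libraries 1 to 4 were 3.73, 9.38, 10.7 and 14.6 CPM. In formative-high cells it was at 72.0, 61.3, 70.2 and 82.9 CPM, and in keratin-high cells at 170, 228, 170 and 217 CPM. The ranges did not overlap across libraries: each formative-high value lay above each naive-high value, and each keratin-high value above each formative-high value. The share of all genes separated in this way was not computed, so the separation is not read as particular to Nes. Within a library formative-high cells exceeded naive-high cells 19.3-fold (16.9 to 22.0), 6.54-fold (6.13 to 6.98), 6.57-fold (6.08 to 7.10) and 5.67-fold (5.32 to 6.05) in libraries 1 to 4. Keratin-high cells exceeded formative-high cells by a further 2.36-fold to 3.71-fold.

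**Figure D1:**
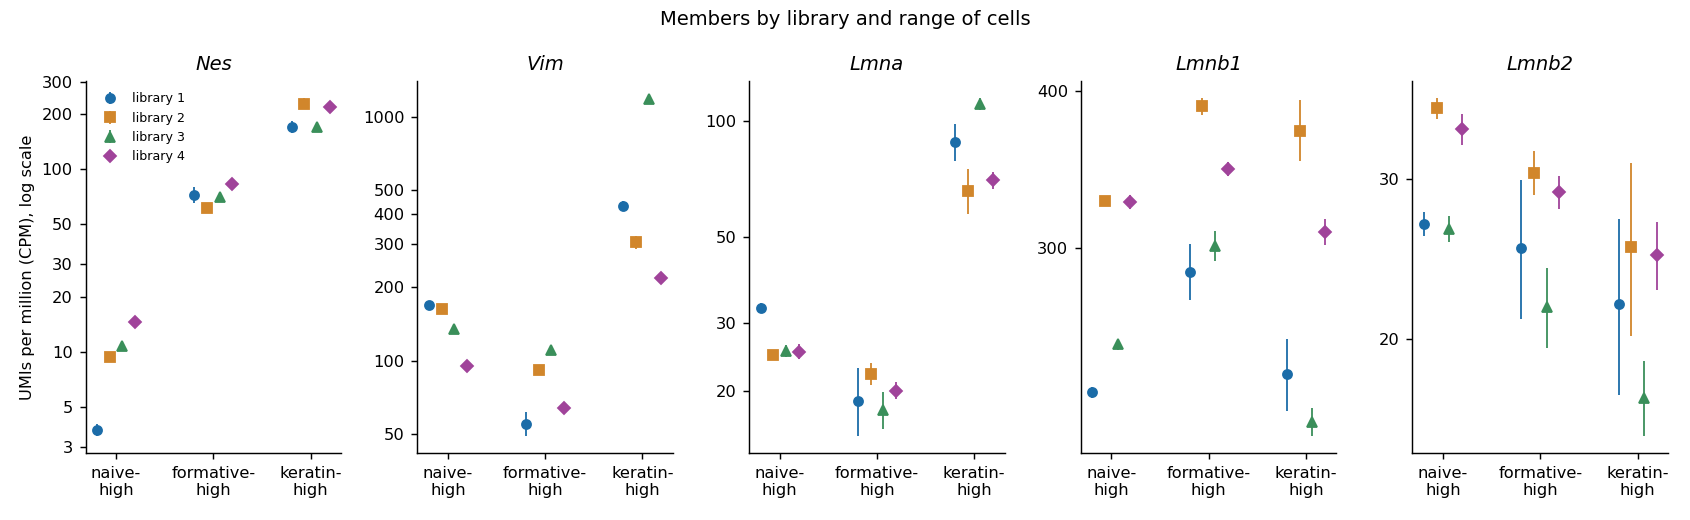
CPM (log scale, a separate axis for each gene) of the 5 genes in naive-high, formative-high and keratin-high cells of each library; symbols are the 4 libraries and bars are exact 95% Poisson intervals. Nes climbs from 3.73 to 14.6 CPM in naive-high cells to 170 to 228 CPM in keratin-high cells, whereas Vim is lowest in formative-high cells and Lmnb2 stays between 17.2 and 35.8 CPM.

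The span of Nes between libraries was smaller within each range than over whole libraries. Nes spanned 1.35-fold (1.29 to 1.42) between libraries in formative-high cells and 1.34-fold (1.24 to 1.45) in keratin-high cells, and 3.91-fold (3.54 to 4.33) in naive-high cells. When each library was given the mix of the 3 ranges found in library 1, the Nes levels became 9.66, 15.98, 16.2 and 21.4 CPM, a 2.21-fold span in place of 7.19-fold. The value depends on the mix chosen, since library 1 is mostly naive-high cells, where Nes spanned most. Other mixes were not tried. In library 1, keratin-high cells were 1.43% of the cells and held 40.2% of the Nes counts, while naive-high cells held 36.6%. In library 4, formative-high cells held 51.7% and keratin-high cells 39.0%. Nes in naive-high cells followed the order of the whole libraries, and the part of free RNA from other cells in those low levels was not tested, since no cells known to lack Nes were available here.

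Vim, in contrast, was lower in formative-high than in naive-high cells. Naive-high cells of libraries 1 to 4 had 169, 163, 135 and 94.9 CPM of Vim, compared with 55.1, 91.6, 111 and 63.8 CPM in formative-high cells. Formative-high cells were thus at 0.327, 0.560, 0.817 and 0.672 of the naive-high level, lower in 4 of 4 libraries, although not by the 1.5-fold in every library that the call below required. Lmna was likewise lower in formative-high cells of each library, at 0.573, 0.894, 0.704 and 0.791 of the naive-high level. Among cells without a single Krt8 or Krt18 UMI the Lmna difference in library 2 was gone, at 1.01 of the naive-high level (0.917 to 1.12), whereas Nes still differed 15.2-fold, 5.78-fold, 8.05-fold and 4.63-fold. Between libraries Vim spanned 1.78-fold in naive-high, 2.01-fold in formative-high and 5.42-fold in keratin-high cells.

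Neither B-type lamin was called between these ranges. Formative-high cells of libraries 1 to 4 had 287, 389, 301 and 347 CPM of Lmnb1, compared with 230, 327, 251 and 326 CPM in naive-high cells, which is 1.06-fold to 1.25-fold higher. The median gene was itself 0.13, 0.08, 0.12 and 0.08 higher on the log2 scale in formative-high cells, and with size factors set on the median gene the Lmnb1 ratios were 1.08, 1.08, 1.05 and 0.999, so the direction in library 4 was lost. Lmnb2 was at 25.2, 30.4, 21.7 and 29.0 CPM in formative-high cells, or 0.820 to 0.941 of the naive-high level, and the library 1 interval (0.785 to 1.12) included 1. Among cells without a single Krt8 or Krt18 UMI the library 1 ratio turned to 1.14 (0.857 to 1.49). With size factors the Lmnb2 ratios were further from 1, at 0.814, 0.773, 0.719 and 0.802.

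Among 10901 genes with at least 200 counts over both ranges in every library and outside the 2 lists, 791 (7.26%) were at least 1.5-fold higher in formative-high cells of all 4 libraries and 589 (5.4%) were at least 1.5-fold lower. With size factors the split was 563 higher and 767 lower. Of the 5 genes, Nes was called higher and none was called lower. Of 18 genes for lamina partners and lamin processing, 16 were tested and 2 called. Syne2, a long spectrin-repeat protein of the outer nuclear membrane, was 2.57-fold, 1.70-fold, 1.60-fold and 1.68-fold higher, and Fntb, the beta subunit of the farnesyltransferase that modifies lamins, was at 0.505, 0.666, 0.653 and 0.615 of the naive-high level. Lbr, the lamin B receptor, was at 1.67, 1.30, 1.495 and 1.25 times the naive-high level and was not called. Over the 16 tested genes the median was 0.35, 0.10, 0.31 and 0.15 on the log2 scale.

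Of 16 other intermediate filament and linker genes, 13 were tested, and 4 were called higher in formative-high cells, beside 7.26% of all genes. Nefm, a neurofilament subunit, was 7.12-fold, 5.27-fold, 3.81-fold and 6.86-fold higher, and Synm, which encodes synemin, another filament protein that needs a partner, was 3.02-fold, 2.69-fold, 3.02-fold and 2.49-fold higher. Krt8 was 2.17-fold to 5.15-fold higher and Krt18 2.98-fold to 9.28-fold higher, although cells with 5 or more of their UMIs had been set apart. Over the 13 genes the median was 0.91, 0.39, 0.55 and 0.43 on the log2 scale.

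The same difference between the 2 lists was also graded in finer bins, which is not a check separate from the ranges. With keratin-high cells set apart, Nes was at 1.99 to 9.78 CPM in cells whose naive UMIs exceeded their formative UMIs by 15 or more, and at 2.66 to 11.1 CPM where they did by 5 to 9. Its levels were 10.4, 13.6, 26.2 and 19.2 CPM over libraries 1 to 4 where the difference lay between 0 and 4. One step further, where formative UMIs were ahead by 1 to 4, it was at 72.0, 41.0, 70.4 and 66.4 CPM. In each library the largest fold step between neighbouring bins lay at the point where the formative list overtook the naive list. In cells with a formative lead of 10 or more, libraries 2 and 4 had 81.0 and 94.9 CPM of Nes. The values there for libraries 1 and 3, 112 and 51.6 CPM, rest on 6 and 19 cells.

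Vim was lower over the same steps. It stood at 176, 167, 171 and 95.3 CPM where the naive list led by 0 to 4 UMIs, and libraries 2 and 4 had 61.2 and 52.5 CPM where the formative list led by 10 or more. Pou3f1, a POU factor of the formative epiblast and of neural tissue, was also used to grade the cells. Cells of libraries 1 to 4 without a Pou3f1 UMI at 5000 UMIs had 4.55, 12.4, 11.9 and 29.7 CPM of Nes, cells with 1 had 28.3, 36.0, 51.5 and 67.4 CPM, and cells with 2 had 62.3, 61.0, 77.7 and 76.6 CPM. Nes was higher with Pou3f1 also among naive-high cells alone, at 16.6, 17.4, 38.0 and 23.9 CPM with a Pou3f1 UMI compared with 3.31, 8.57, 8.98 and 13.1 CPM without.

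Nes was then compared between cells without and with a Nanog UMI at 5000 UMIs, keratin-high cells set apart. Cells without a Nanog UMI at this depth are not cells without Nanog. Of all kept cells of libraries 1 to 4, 52.9%, 43.7%, 38.3% and 23.6% had one at 5000 UMIs. Without thinning the shares were 90.4%, 81.1%, 74.6% and 55.7%. In full counts the log2 differences of Nanog itself between the 2 classes were -1.01, -1.27, -1.38 and -1.91, so the split was unequal between libraries. Nanog is a core pluripotency factor that fluctuates in mESC and falls early as cells leave the naive state. Cells without a Nanog UMI had 8.29, 26.5, 24.4 and 55.6 CPM of Nes in libraries 1 to 4, and cells with one had 3.74, 12.1, 8.49 and 27.0 CPM. The ratios were 2.22 (1.93 to 2.54), 2.19 (2.04 to 2.35), 2.87 (2.60 to 3.17) and 2.06 (1.93 to 2.20). The ratio depended on depth. In library 1 it was 1.33 (1.02 to 1.75) in cells below the library's median UMI count and 3.37 (2.88 to 3.94) with Nanog detection in full counts. In library 2 it was 2.65 (2.34 to 3.01) below the median and 1.98 (1.81 to 2.16) above it, the opposite order to library 1. With full counts it was 3.01 (2.82 to 3.21) there. Before keratin-high cells were set apart the ratios of libraries 1 to 4 were 3.74, 2.43, 4.05 and 2.30. Nes also fell in steps with the number of Nanog UMIs, from the levels without one to 1.94, 8.51, 3.73 and 7.57 CPM in cells with 3 or more.

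The difference was much smaller within the ranges. Among formative-high cells the ratios of libraries 1 to 4 were 1.16 (0.900 to 1.498), 1.23 (1.10 to 1.38), 1.26 (1.07 to 1.48) and 1.08 (1.00 to 1.18). Among naive-high cells it was 1.67, 1.24, 2.46 and 1.27, so that library 3 kept most of its difference. Among naive-high cells without a single formative UMI the ratios were 1.13 (0.876 to 1.45), 1.10 (0.847 to 1.43), 2.60 (2.11 to 3.23) and 1.496 (1.06 to 2.13). In that comparison libraries 1 and 2 had intervals that included 1, and library 3 had 11.2 CPM without and 4.32 CPM with a Nanog UMI.

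**Figure D2:**
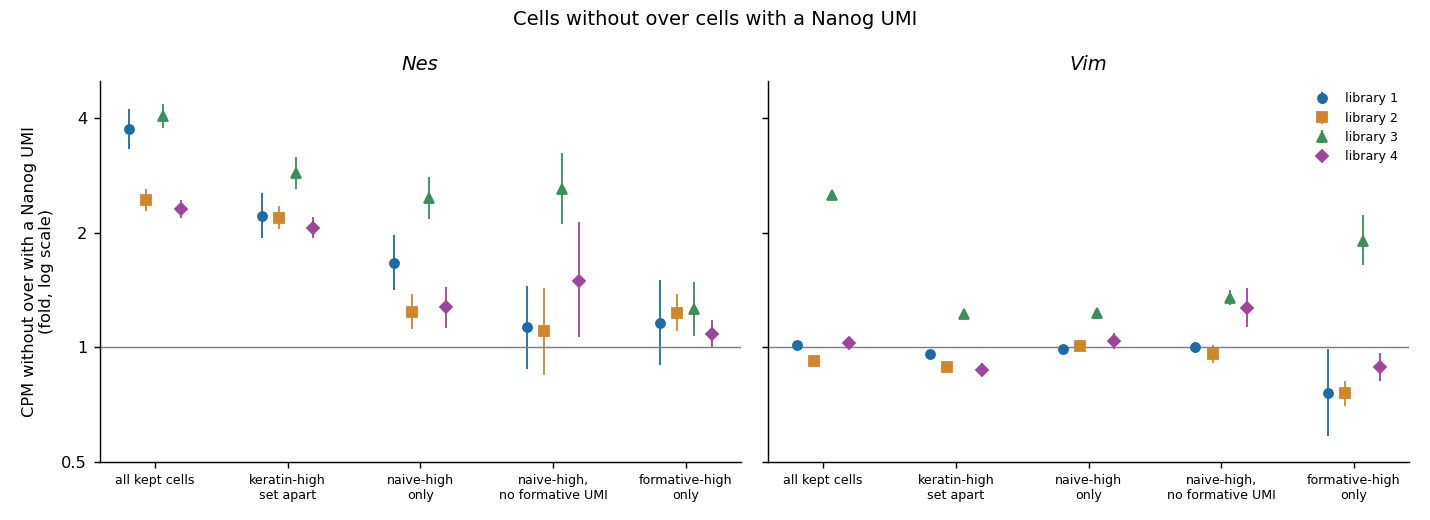
CPM in cells without over cells with a Nanog UMI (log scale) for Nes and Vim under 5 choices of cells; symbols are libraries and bars are exact 95% intervals of the ratio. The Nes ratio falls from 2.30 to 4.05 over all kept cells to 1.08 to 1.26 in formative-high cells, and only library 3 is above 2 among naive-high cells.

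The other members differed little with Nanog. Vim was at 0.960, 0.885, 1.22 and 0.873 of its level in cells with a Nanog UMI, and without setting keratin-high cells apart the value of library 3 was 2.503. Among formative-high cells Vim was at 0.757, 0.756 and 0.887 in libraries 1, 2 and 4 but at 1.90 in library 3. Lmna ratios lay between 0.954 and 1.00, those of Lmnb1 between 0.990 and 1.03, and those of Lmnb2 between 0.921 and 0.964. Of 10913 genes tested, 32 (0.293%) were at least 1.5-fold higher in cells without a Nanog UMI in every library, Nes and Pou3f1 among them, and 0 (0%) were lower. The count depended on library 1, without which 144 genes were higher and 6 lower. Since Nes had been chosen on this contrast, its place among the 32 is not a result. No gene of the lists for lamina partners and other filaments was called, with 16 and 11 genes tested.

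Keratin-high cells were set against all other cells of their library. With Krt8 and Krt18 left out of the totals, Nes stood at 170, 228, 170 and 218 CPM in keratin-high cells and 5.91, 20.2, 17.9 and 48.4 CPM in the others, a difference of 28.8-fold (26.0 to 31.9), 11.3-fold (10.5 to 12.2), 9.49-fold (9.04 to 9.97) and 4.50-fold (4.34 to 4.67). Vim was at 431, 306, 1183 and 218 CPM in keratin-high cells, or 2.61-fold, 2.06-fold, 8.93-fold and 2.74-fold above the other cells. Lmna was at 88.2, 66.0, 111 and 70.2 CPM, or 2.72-fold, 2.72-fold, 4.52-fold and 3.09-fold above. Nes was thus high in all 4 libraries alike, whereas Vim and Lmna were highest in library 3.

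The B-type lamins were not called in these cells. Keratin-high cells had 238, 372, 218 and 309 CPM of Lmnb1, with log2 differences of 0.04, 0.13, -0.23 and -0.12 from the other cells, and with size factors it was lower in all 4 libraries (ratios 0.888, 0.967, 0.761 and 0.875). Lmnb2 was at 21.8, 25.2, 17.2 and 24.7 CPM and lower in 4 of 4 libraries, with log2 differences of -0.29, -0.46, -0.58 and -0.35. Against naive-high cells alone the library 1 ratio of Lmnb2 was 0.816 with an interval (0.649 to 1.01) that included 1. The measured differences of Lmna and Lmnb2 thus had opposite directions in each library. The share of all genes lower in every library without regard to size was not computed, so the direction of Lmnb2 is not read as particular to it.

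Of 11097 genes tested, 853 (7.69%) were at least 1.5-fold higher in keratin-high cells of every library and 613 (5.52%) lower, and with size factors 660 were higher and 761 lower. Nes, Vim and Lmna were called higher, 3 of the 5 genes, but Vim would lose its call in a check given below. The calls were the same where keratin-high was defined as at least 2 keratin UMIs after thinning to 5000 UMIs, although cells past this cut were still deep, with medians of 22353 to 24803 UMIs. Nes then differed 27.6-fold, 8.92-fold, 8.003-fold and 3.901-fold, Vim 2.95-fold, 1.91-fold, 9.33-fold and 3.23-fold, and Lmna 2.88-fold, 2.73-fold, 4.68-fold and 3.29-fold.

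**Figure D3:**
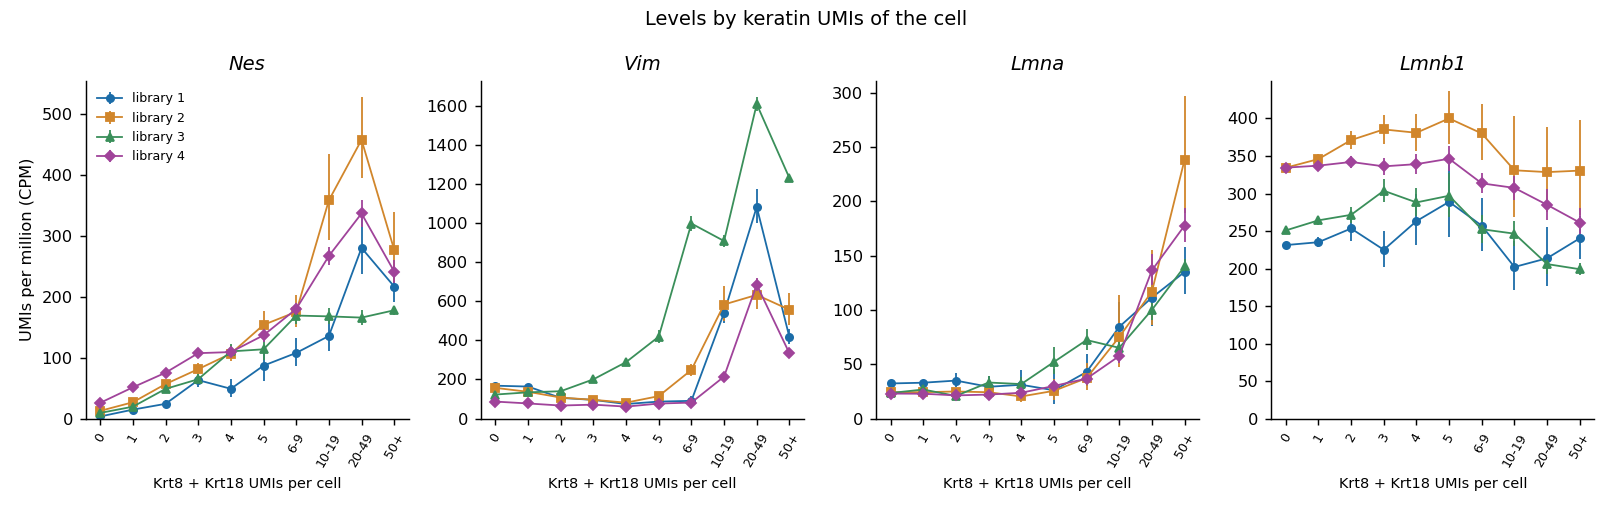
CPM of Nes, Vim, Lmna and Lmnb1 against the Krt8 and Krt18 UMIs of a cell in full counts; lines are libraries and bars are exact 95% Poisson intervals. Nes rises from the first keratin UMI on, whereas Vim and Lmna stay near or below their starting level up to 4 UMIs in libraries 1, 2 and 4 and are high at 20 to 49 UMIs in all 4 libraries.

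The 3 genes did not rise at the same keratin level. Nes was at 3.43, 12.7, 9.24 and 25.8 CPM in cells of libraries 1 to 4 without a keratin UMI, and already at 24.2, 56.7, 48.7 and 75.3 CPM in cells with 2. Just outside the cut, with 4 UMIs, it was at 48.9, 107, 110 and 109 CPM, and just inside, with 5, at 86.9, 154, 114 and 137 CPM. The bin of 5 UMIs in library 1 held 14 cells. Nes therefore rose before the cut, and in library 3 the levels on its both sides were close.

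Vim took another course. In libraries 1, 2 and 4 it was lower in cells with 4 keratin UMIs (74.4, 81.4 and 61.1 CPM) than in cells with none (168, 157 and 86.9 CPM), and reached 1083, 633 and 685 CPM in cells with 20 to 49. In library 3 it was at 123 CPM without a keratin UMI, 201 CPM with 3, 419 CPM with 5 and 998 CPM with 6 to 9. Lmna kept between 20.3 and 34.9 CPM up to 4 keratin UMIs and stood at 135, 238, 140 and 178 CPM in libraries 1 to 4 in cells with 50 or more. The bins of 20 to 49 UMIs held 18 cells in library 1 and 17 in library 2, and the bin of 50 or more held 10 cells in library 2.

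Markers of some other cell types moved with these genes, and markers of others did not. The summed level of 7 fibroblast genes (Col1a1, Col1a2, Col3a1, Lum, Dcn, Thy1, Postn) was 1.55 to 4.03 CPM in naive-high cells, 4.80, 8.72, 13.7 and 7.83 CPM in formative-high cells and 29.5, 25.8, 58.6 and 16.6 CPM in keratin-high cells of libraries 1 to 4. It thus also moved with the formative-high level of Nes, and its part in that difference was not tested. Over all kept cells Thy1 held 250 of 382, 961 of 1071, 200 of 2080 and 895 of 1198 list counts in libraries 1 to 4. Among all kept cells of libraries 1, 2 and 4 a UMI of the list was thus mostly one of Thy1, which need not hold within keratin-high cells. Col1a1, a fibrillar collagen gene, was at 2.63, 13.7, 21.6 and 6.38 CPM in keratin-high cells, whereas Lum, a proteoglycan of connective tissue, had 0 counts there in all 4 libraries. In keratin-high cells of library 2, Col1a1 was thus 13.7 of the 25.8 CPM of the list, so Thy1 did not make up most of it. Thy1, the 1 gene of the list with enough counts for the call rule, was at 1.79, 1.63, 0.720 and 1.24 times the level of the other cells and was not called. At least 1 UMI of the list was found in 16.4%, 28.8%, 31.3% and 21.2% of keratin-high cells, compared with 10.6%, 17.3%, 10.9% and 15.2% of formative-high cells and 2.70% to 8.30% of naive-high cells. The summed level of 5 primitive endoderm genes (Gata4, Gata6, Sox17, Pdgfra, Foxa2) was 0.513 to 0.577 CPM in naive-high cells, 0.384 to 0.947 CPM in formative-high cells and 0.526, 4.16, 6.99 and 4.34 CPM in keratin-high cells of libraries 1 to 4. It was thus higher in keratin-high cells of libraries 2 to 4, from 14, 177 and 94 counts, and its part in the Nes, Vim and Lmna differences was not tested. When all cells with a fibroblast-list UMI were left out, a check added after these values were seen, the Vim difference was 1.16-fold (1.07 to 1.26), 1.25-fold (1.13 to 1.37), 4.90-fold (4.78 to 5.02) and 2.32-fold (2.23 to 2.42). Vim would not be called on these values, whereas Nes (31.8-fold, 12.7-fold, 10.7-fold and 4.95-fold) and Lmna (2.57-fold, 2.55-fold, 3.98-fold and 3.13-fold) would still be called.

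**Figure D4:**
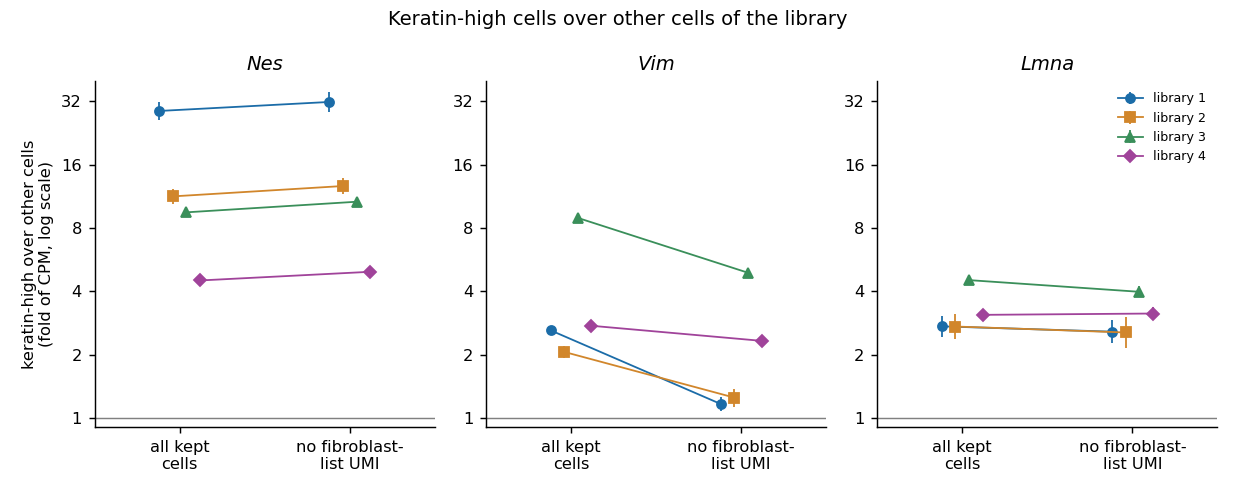
Ratio of CPM in keratin-high cells over the other cells of a library (log scale) for Nes, Vim and Lmna, with all kept cells and with cells holding a UMI of 7 fibroblast genes left out; symbols are libraries and bars are exact 95% intervals. The Vim ratio falls to 1.16 in library 1 and 1.25 in library 2, while the Nes ratios of 4.95 to 31.8 and the Lmna ratios of 2.55 to 3.98 remain.

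Among the other filament and linker genes, 12 were tested in keratin-high cells, 6 were called higher and 1 lower (7.69% and 5.52% of all genes tested), with medians of 1.34, 0.84, 1.42 and 0.88 on the log2 scale. Krt19, a further keratin of simple epithelia, was 134-fold, 30.1-fold, 75.8-fold and 39.0-fold higher, and Krt7 was 4.13-fold, 4.94-fold, 36.2-fold and 6.19-fold higher. Both are keratins like Krt8 and Krt18, which define these cells, so their calls are not read as independent of the cut. Prph, which encodes the neuronal filament peripherin, was 3.24-fold to 4.21-fold higher and Nefm 5.22-fold to 10.7-fold. Plec, whose product plectin links filaments to other structures, was 2.65-fold, 2.59-fold, 4.50-fold and 2.35-fold higher, and Vcl, which encodes the adhesion protein vinculin, 2.04-fold to 4.74-fold. Ina, the neuronal filament internexin, was at 0.599, 0.474, 0.410 and 0.576 of the level in the other cells. Filament genes thus moved in both directions.

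Of the 17 lamina genes tested in keratin-high cells, Sun2 alone was called, a share near the 7.69% of all genes called higher. Its product joins the lamina to the cytoskeleton through nesprins, and it was 1.60-fold, 1.87-fold, 2.68-fold and 1.76-fold higher, from 15, 11, 136 and 63 counts. Sun1, its partner gene, was at 0.446, 0.518, 0.614 and 0.712 of the level in the other cells, lower in each library but past 1.5-fold only in libraries 1 to 3. Emd, which encodes emerin, was at 1.83, 1.43, 1.70 and 1.25 times that level, and Zmpste24, the protease that matures prelamin A, at 1.81, 1.24, 1.55 and 1.19 times. Over the 17 genes the median was 0.43, 0.41, 0.23 and 0.11 on the log2 scale, beside 0.09, 0.07, 0.03 and 0.02 for all genes tested.

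Of the neural progenitor genes, among which Nes is usually counted, Pax6 and Msi1 had enough counts to be tested. Pax6 was at 0.156, 0.343, 0.258 and 0.421 of the naive-high level in formative-high cells and at 0.0882 to 0.489 of the level of other cells in keratin-high cells, and was called lower in both contrasts. Msi1, an RNA-binding protein of neural progenitors, was at 1.32, 2.36, 1.73 and 2.38 times the naive-high level in formative-high cells and was not called. These calls stand beside 5.4% and 5.52% of all genes called lower. Of the 7 genes of mesenchymal transition, 4 were tested: Twist1 was called higher in formative-high cells (4.18-fold to 5.39-fold) and in keratin-high cells (2.19-fold to 4.60-fold), while Fn1 and Zeb1 were called lower in formative-high cells, beside 7.26% and 7.69% of all genes called higher in these contrasts and 5.4% called lower in formative-high cells. The sum of the 7 genes was 252, 231, 183 and 187 CPM in naive-high cells, 124, 148, 143 and 113 CPM in formative-high cells and 191, 186, 448 and 141 CPM in keratin-high cells of libraries 1 to 4. Over all kept cells Fn1 held 35588 of 41156, 38611 of 42739, 31028 of 37553 and 22673 of 26006 counts in libraries 1 to 4. The sum is therefore mainly the level of Fn1. Like Vim the sum was lower in formative-high than in naive-high cells of each library. In keratin-high cells it was higher than in naive-high cells in library 3, where Vim was highest, and lower in the other libraries, and its part in the Vim levels was not tested.

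Of the remaining lists, 1 of 6 trophectoderm genes was tested. It was Tfap2c, which was called lower in formative-high and in keratin-high cells. The sum of the 6 trophectoderm genes was 41.7 to 57.3 CPM in naive-high cells. The sum was lower in each library in formative-high cells (9.78 to 14.3 CPM) and in keratin-high cells (22.6 to 31.1 CPM). Tfap2c itself had log2 differences of -2.19, -2.05, -1.59 and -1.44 between keratin-high and other cells of libraries 1 to 4. The sum therefore need not show the direction of the other genes of the list, which had too few counts for a call. The 5 primitive endoderm genes had too few counts for a call. Sox2 and Nanog were called lower in both contrasts, 2 of the 6 pluripotency genes, beside 5.4% and 5.52% of all genes. In keratin-high cells Sox2 was at 0.277 to 0.476 of the level in the other cells of the library.

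Of the 5 genes, both B-type lamins were higher in cells rich in G2/M transcripts in every library. The share of all genes that were so was not computed, so these ratios are not read as particular to the B-type lamins. Cells in the upper quartile of UMIs of 14 G2/M genes, against cells in the lower quartile and with keratin-high cells set apart, had Lmnb1 at 1.31, 1.20, 1.35 and 1.27 times the level and Lmnb2 at 1.14, 1.18, 1.18 and 1.19 times. Lmna was at 1.74, 1.00, 1.08 and 0.884 times and Vim at 1.39, 0.910, 0.709 and 0.873 times, with no common direction. Nes was lower in the upper quartile in each library, at 0.684, 0.851, 0.597 and 0.854, but among naive-high cells alone it was at 0.844, 1.05, 0.660 and 1.05. Upper-quartile cells held more UMIs in full counts, with medians of 22112 to 25685.5 compared with 15627 to 19168. The G2/M genes summed to 2992 to 3325 CPM in formative-high cells and 3098 to 3353 CPM in naive-high cells. In keratin-high cells, where Lmnb2 was lower, they summed to 2886, 2859, 2360 and 2833 CPM, below both other ranges in each library, and their part in that difference was not tested. The 14 S-phase genes were also lowest there, at 1877, 1998, 1522 and 1809 CPM compared with 2072 to 2222 CPM in naive-high cells. In formative-high cells they summed to 2309, 2354, 2135 and 2132 CPM, above naive-high cells of each library. Their part in the formative-high level of Lmnb1 was not tested. Between quartiles of the S-phase genes Lmnb1 was at 1.09, 1.15, 1.10 and 1.15 times and Lmnb2 at 1.02 to 1.03 times. Nes was at 1.60, 1.31, 1.03 and 1.17 times, and the library 3 interval (0.932 to 1.13) included 1. Among naive-high cells alone Nes was at 1.26, 1.36, 0.850 and 1.19 times, so neither list gave Nes 1 direction in all libraries there.

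Correlations between the members across single cells were low, but sparse counts limit what they show of how far the members occur together. Over 10 pairs and 4 libraries, Pearson's r of thinned UMIs across all kept cells lay between -0.12 and 0.29, values that are low in sparse counts and also carry the differences between the ranges. Within keratin-high cells Vim and Lmna had r of 0.35, 0.30, 0.18 and 0.35 in libraries 1 to 4 (116, 111, 852 and 708 cells), and Nes and Vim had -0.02, -0.09, -0.06 and -0.03. Vim and Lmnb1 had -0.20, -0.17, -0.30 and -0.11 there.

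The genes whose levels ran most like each member were found over 12 sums (3 ranges in 4 libraries) by Pearson's r of log2(CPM + 1) among 11099 genes. The sums share libraries and ranges and are not independent. Nes ran most like Dusp3 (0.995), Carmil1, Lsr, Dock11 and Myh10 (0.988), of which Myh10 encodes a non-muscle myosin heavy chain and Carmil1 a regulator of actin capping. Vim ran most like Tcn2 (0.964), Sri, Ap2m1, Nradd and Cast (0.954). Lmna ran most like Pdgfb (0.992), a growth factor gene, followed by Cyld, Ciao3, Ptbp3 and Emp2 (0.965).

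Lmnb1 ran most like Cwc22 (0.986), Nsun2, Ythdf1, Chaf1a and Cdc73 (0.982), which include genes for RNA processing and for chromatin assembly. Lmnb2 ran most like Cspp1 (0.979), Suz12, Ctdspl2, Rrn3 and Mcph1 (0.968), of which Suz12 encodes a subunit of Polycomb repressive complex 2. Between members, Vim and Lmna had r of 0.918 and Lmnb1 and Lmnb2 0.612, while Nes had 0.368 with Vim and -0.585 with Lmnb2. The cytoplasmic filament genes Nes and Vim thus ran less alike over these sums than Vim and Lmna.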

How the data were processed

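Per the labels, the file headers and the study's methods, the authors made the counts with Cell Ranger 6.1.2 on mm10 and joined the 4 libraries with its aggregation step, which subsamples reads to similar depth. The deposited values are raw UMI counts per gene and barcode (41142 barcodes). The members and lists were chosen with earlier results of these data known. Kept cells had UMIs and genes of at least the library mean minus 1 SD and at most 10% mitochondrial UMIs. No doublet caller was run, and cells over 2 times the median UMI count were left out in an alternative. Counts were summed per library and range of cells, with exact Poisson, Clopper-Pearson and conditional binomial intervals. A gene was called at 1.5-fold or more in the same direction in every library with at least 200 counts in each. Genes defining a contrast were left out of its totals. No p-value was computed, since no library could be assigned to a group and cells are not replicates. The genes named were the members, list genes that were called or are partners of the lamina, reference genes and the 5 most similar genes per member. Coordinates are from GENCODE vM21. Python 3.11.15, numpy 2.4.6 and scipy 1.17.1 were used. The alternatives used other size factors, minimum counts, folds, cuts and cells. One result on a marker list is not reported here.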

Additional observations from a re-analysis of the deposited data

How the results depend on the processing

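No paired analysis was possible because no library could be tied to a labelled replicate. The Nes span over libraries was 8.76-fold as a mean over cells, 6.20-fold with size factors, 9.61-fold without cells over 2 times the median UMI count and 8.18-fold without keratin-high cells. The Vim span was 2.91-fold, 3.15-fold and 2.08-fold with the first, second and last of these. Without keratin-high cells the widest gap of Vim and of Lmna lay between libraries 1 and 4. Lmna spanned 1.43-fold without the deepest cells and also 1.43-fold without keratin-high cells, but 1.53-fold with size factors, which is past the 1.5-fold cut. Lmnb1 spanned 1.32-fold with size factors, and Lmnb2 1.34-fold without keratin-high cells. Nes was at least 1.5-fold higher without Nanog in 2 libraries among naive-high cells, 0 among formative-high cells and 1 among naive-high cells without a formative UMI, the last chosen after seeing the data. Under the other 9 choices it was so in 3 or 4.

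With at least 50 counts, 98 genes were higher without Nanog and 1246 in formative-high cells. With 2-fold required, 10 were higher without Nanog, 312 higher and 240 lower in formative-high cells, and 319 higher and 284 lower in keratin-high cells. Leaving out 1 library gave 34 to 144 genes higher without Nanog, the most without library 1, and 0 to 6 lower. It gave 856 to 957 higher and 608 to 698 lower in formative-high cells, and 884 to 1276 higher and 638 to 867 lower in keratin-high cells. The causes were not tested. Without keratin UMIs, a choice also made after seeing the data, Lmna in library 2 (1.01 times the naive-high level) and Lmnb2 in library 1 (1.14 times) turned direction in formative-high cells. In the contrasts between cells the calls of the members were the same with other size factors, minimum counts, folds, cuts and each library left out. However, Vim in keratin-high cells would lose its call without cells holding a fibroblast-list UMI (1.16-fold and 1.25-fold in libraries 1 and 2). Depth limits low levels: 3 counts equal 0.0150 to 0.0180 CPM.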
